A study of Mus musculus with 12 samples.

Results

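The cytosolic ribosomal protein genes were taken as all protein-coding genes of the mouse annotation whose symbol starts with Rpl or Rps followed by a digit, together with Rplp0, Rplp1, Rplp2 and Rpsa. S6 kinase genes (Rps6k) and pseudogenes were left out. The rule matched 86 of the 56647 gene rows used, 52 named for the large and 34 for the small ribosomal subunit. Among them Rps19bp1 belongs to a binding partner of a ribosomal protein. The samples were heart muscle of 10 wild type mice. In 3 of them, called sham vehicle mice, the labels named both a sham and vehicle treatment. In 3 MI mice the left coronary artery had been ligated, which causes a myocardial infarction. In 4 NECA-treated MI mice, NECA (5′-(N-ethylcarboxamido)adenosine, an adenosine analogue that activates adenosine receptors) had been delivered locally into the infarcted heart muscle. The labels of the MI mice named neither vehicle nor a local delivery. NECA and the act of delivery therefore cannot be told apart, and neither can ligation and a possible lack of vehicle. The sources used here give no age, sex, NECA dose or time after ligation.

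Each cytosolic ribosome holds a single copy of most ribosomal proteins, and cells make them in matched amounts. Their mRNAs are among the most abundant of a cell. Most start with a run of pyrimidines, the 5′ terminal oligopyrimidine (TOP) tract, through which mTORC1 and the RNA-binding protein LARP1 control their translation together. That control acts on translation and on mRNA stability, and RNA-seq measures only the amount of mRNA. In the heart, ribosome production rises when muscle cells grow, and the healing infarct also gains fibroblasts and immune cells that grow and secrete. Striated muscle has a ribosomal protein of its own, RPL3L, which can take the place of RPL3.

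The start regions of a few of these genes show the tract. A run of a C followed by at least 6 bases, each C or T, was searched on the transcribed strand, from 10 bases before to 50 bases after the annotated start, in the promoter table of RefSeq (build GRCm38.p6). Of 66 ribosomal protein genes with an entry, 48 (72.7%) held such a run, against 7629 of 27025 genes of the table (28.2%). The windows printed here span 10 bases before the annotated start and the 20 bases from it on. They are shown for 3 genes among those with the smallest p in the comparisons of mice, and for Rps2 and Rpl3l, which went against the other members. Capitals mark the run.
Rpl14 (chr9:120571507-120571536, plus strand): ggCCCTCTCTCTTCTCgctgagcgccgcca
Rps9 (chr7:3704031-3704060, plus strand): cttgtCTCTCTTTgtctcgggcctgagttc
Rpl35 (chr2:39005112-39005141, minus strand): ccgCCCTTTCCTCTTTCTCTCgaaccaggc
Rps2 (chr17:24720053-24720082, plus strand): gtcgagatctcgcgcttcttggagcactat
Rpl3l (chr17:24727816-24727845, plus strand): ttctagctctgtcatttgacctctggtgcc
In Rpl14, Rps9 and Rpl35 the run lay at or near the annotated start. In Rps2 and in this start of Rpl3l it lay further downstream in the searched region, outside the window shown. Rpl3l had a further annotated start at which no run was found. A match describes the letters, not a tract in use. The median log2 fold change of MI against sham vehicle mice was 0.30 both in the 46 tested genes with the run and in the 16 without it.

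The 12 libraries differed in kind. MI mice 2 and 3 had each been sequenced in a 1st library of 30745429 and 27130817 counts and a 2nd of 971760 and 959840 counts, and the other 8 libraries held 1061866 to 1330259 counts. All comparisons of groups used 1 library per mouse, the 2nd of these mice, so that 10 libraries of like depth entered. Across the tested genes the 2nd library of MI mouse 2 correlated at r = 0.91 with the 1st library of its own mouse and at r = 0.93 with that of NECA-treated mouse 4, and 6 of 10 libraries of other mice were more like it than its own pair. Both libraries of MI mouse 3 were most like each other (r = 0.96). Each of these 1st and 2nd pairs joins libraries of unlike depth, and the part of depth in r was not tested. Heart muscle markers were abundant throughout, with all 10 ventricular muscle markers detected and summing to between 54864 and 73984 CPM (counts per 1000000 counts of the library). Sham vehicle mouse 3 and MI mouse 3 stood apart. Sham vehicle mouse 3 held 6424 CPM of 4 atrial markers, with Myl4, Myl7 and Sln all present, and 1195 CPM of 4 fat cell markers. MI mouse 3 held 15219 to 16005 of 10 fibroblast markers, against 1649 to 6998 in the 8 mice other than MI mice 2 and 3 and 2636 to 2705 in MI mouse 2.

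Ribosomal protein mRNA took a larger share of counts in both libraries of MI mouse 3 and in the 1st of MI mouse 2 than in all other libraries. The 86 genes took 1.24%, 1.29% and 1.49% of all counts in sham vehicle mice 1 to 3. The share was 1.47% in MI mouse 1. In MI mouse 2 it was 1.99% in the 1st library and 1.38% in the 2nd, and in MI mouse 3 it was 2.36% and 2.28%. NECA-treated mice 1 to 4 had 1.45%, 1.54%, 1.37% and 1.34%. Both libraries of MI mouse 3 and the 1st of MI mouse 2 thus lay above all others, and the NECA-treated mice lay within or just above the range of the sham vehicle mice. With 1 library per mouse the means were 1.34% ± 0.135 in sham vehicle (SD, n = 3), 1.71% ± 0.493 in MI (SD, n = 3) and 1.42% ± 0.0895 in NECA-treated mice (SD, n = 4). The difference between the MI and sham vehicle means was smaller than the SD of the MI mice. The 95% Wilson interval of the 2nd library of MI mouse 3 ran from 2.25% to 2.31%, and that of the 2nd library of MI mouse 2 from 1.36% to 1.41%, for counting error only. Genes of the mitochondrial genome held between 16.1% and 24.7% of counts. With them left out, the means of the 3 groups in that order were 1.73%, 2.17% and 1.84%. Rows of 296 pseudogenes named after ribosomal proteins added only 0.0129% to 0.0309% of counts. Ribosomal protein genes have many such near-identical copies, among which the authors' counting could split reads, so values of single members carry that uncertainty.

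**Figure D1:**
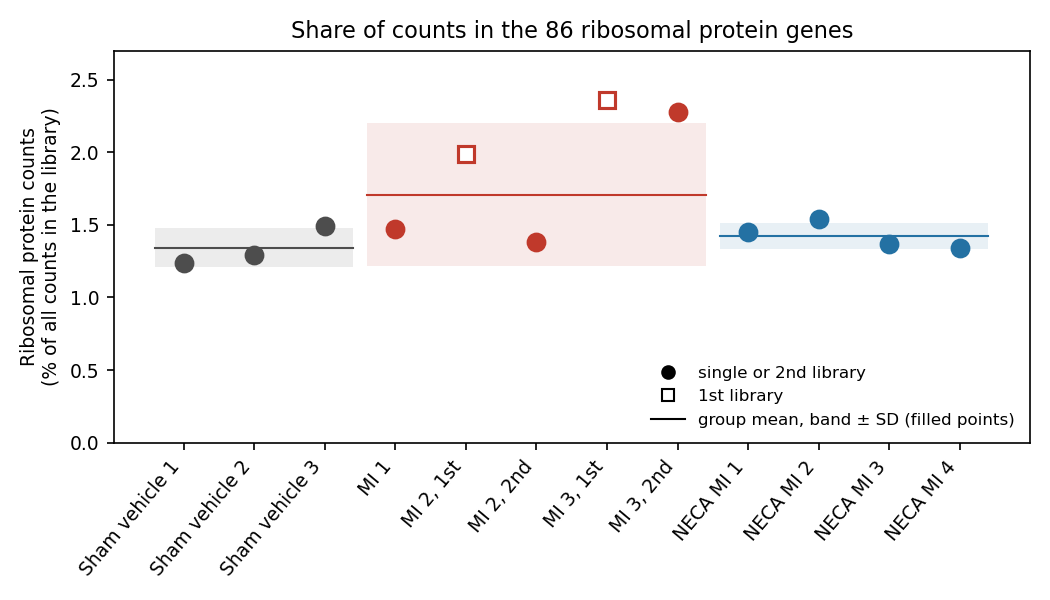
Share of each library's counts in the 86 ribosomal protein genes (vertical axis, percent) for the 12 libraries, with filled points for single or 2nd libraries, open squares for the 1st libraries of MI mice 2 and 3, and lines and bands for the group mean ± SD of filled points. Both libraries of MI mouse 3 (2.36% and 2.28%) and the 1st library of MI mouse 2 (1.99%) sit above the other 9, which lie between 1.24% and 1.54%.

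Fibroblast and macrophage transcripts moved with the share in MI mouse 3. Its 2nd library held 1399 CPM of 16 macrophage and monocyte markers and its 1st 1422, against 234 to 577 in sham vehicle mice, 636 in MI mouse 1, 417 in MI mouse 2 (2nd library) and 567 to 933 in NECA-treated mice. The sum of its 10 fibroblast markers exceeded that of every other mouse, as given above, and all 10 were detected in every library. Of these, Gsn had 1233 and 1394 CPM in its 2nd and 1st library, below the 1833 CPM of sham vehicle mouse 3. The sum of the 10 ventricular muscle markers was lowest in MI mouse 3, at 54864 and 57738 CPM in the 2nd and 1st library. Their median log2 ratio to the sham vehicle mean was -0.41 and -0.47, beside -0.37 in sham vehicle mouse 3. Single markers of MI mouse 3 differed both ways. Myh6 had 15503 and 18009 CPM, against 28004, 28864 and 28051 CPM in sham vehicle mice. Myl2 had 6924 and 6785 CPM against 5779, 6434 and 3756 CPM. Mb had 9760 and 9726 CPM against 8700, 9379 and 7763 CPM. In MI mouse 2 the fibroblast markers summed to 2636 CPM in the 1st library and 2705 CPM in the other, and the macrophage markers to 491 and 417 CPM. Its ventricular markers summed to 65839 and 65571 CPM, but single ones differed both ways, with Myh6 at 15527 and 23897 CPM and Tnni3 at 4960 and 3333 CPM. The median log2 ratio of these 10 markers to the sham vehicle mean was 0.41 in the 1st library and 0.07 in the other. For 5 red cell markers the sums were 3988 and 2589 CPM, the larger in the 1st library. The part of these cell types in the ribosomal protein values was not tested. In tissue RNA, fewer cells of a type and less RNA per cell cannot be told apart.

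Most members moved together from library to library. Of the 86 genes, 82 had counts enough for the test, and 68 had a mean above 100 CPM over the 10 libraries. The 4 not tested were Rpl10l, Rpl39l, Rps19bp1 and Rps27rt. Levels of ribosomal protein genes are given as CPM after TMM scaling, which sets the bulk of genes equal between libraries, while marker levels are CPM of the library total. The log2 ratio of each member to its sham vehicle mean had a median over the 82 members of 0.03, 0.0046 and -0.0080 in sham vehicle mice 1 to 3. It was 0.09 in MI mouse 1, 0.71 and 0.11 in both libraries of MI mouse 2 in order, and 0.60 and 0.63 in those of MI mouse 3. NECA-treated mice 1 to 4 had 0.06, 0.10, -0.0052 and -0.0030. So only MI mouse 3, in both libraries, and the 1st library of MI mouse 2 stood above the rest, and in all libraries the median over all tested genes stayed between 0.0014 and 0.04. Above the sham vehicle mean were 80 of the 82 members in the 2nd and 79 in the 1st library of MI mouse 3, and 82 in the 1st and 66 in the 2nd library of MI mouse 2. Of all tested genes, 51.0%, 52.3%, 53.0% and 52.4% lay above it in these libraries, in that order.

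Genes of both subunits were higher in these libraries. In MI mouse 3 (2nd library) the median log2 ratio was 0.62 for the large and 0.65 for the small subunit, and in the 1st library of MI mouse 2 it was 0.70 and 0.75. Among the 10 libraries of like depth, 77 of the 82 members were highest in MI mouse 3. Each member was also set against the median of all members over these 10 libraries. Pearson's r was above 0.5 in 74 of 82 members, with a median of 0.83, and below 0 in 2, Rpl3l and Rps2. Each member is itself part of that median. The shares of all genes are not given for these counts, so neither is read as particular to these members. They are descriptions over libraries that share MI mouse 3 as their highest point. Rps24, a small subunit protein, had the largest ratio in MI mouse 3 (1.11, 2nd library), and was chosen after its values were seen.

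**Figure D2:**
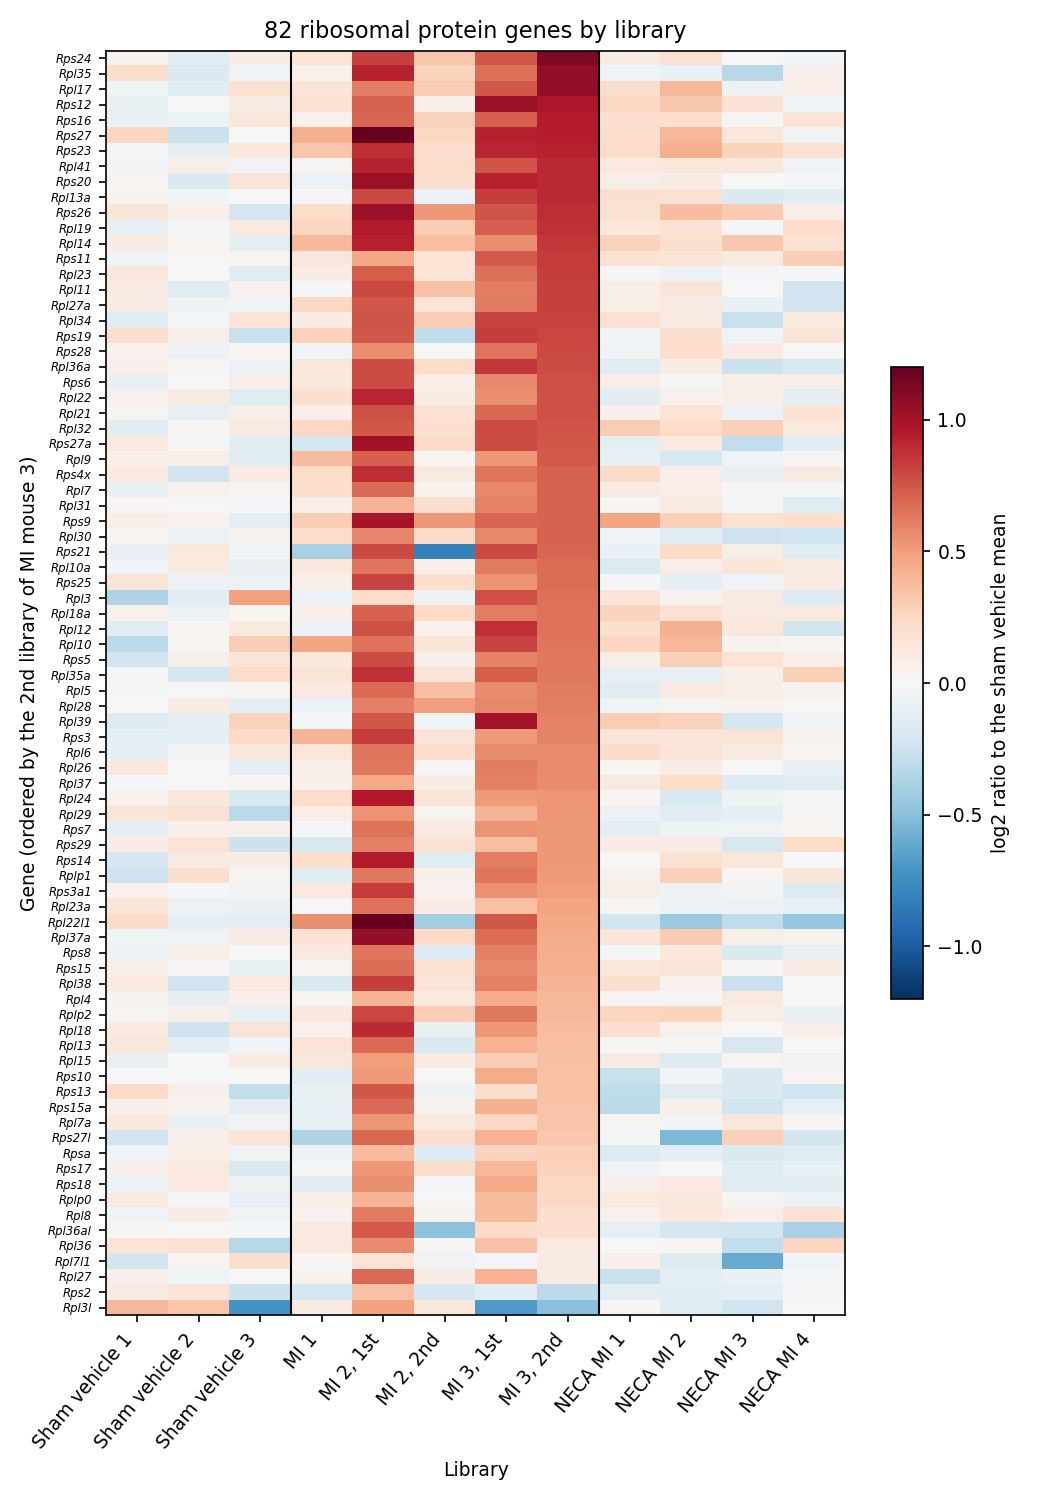
Log2 ratio of each of 82 ribosomal protein genes (rows, ordered by the 2nd library of MI mouse 3) to its mean in sham vehicle mice, in 12 libraries (columns), red for higher and blue for lower, where the end colours also hold values past the scale. Red fills both columns of MI mouse 3 and the 1st library of MI mouse 2 but not its 2nd, and Rpl3l and Rps2 at the bottom are blue in MI mouse 3.

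In MI against sham vehicle mice, ribosomal protein genes were higher in nearly all members, but no member passed the test. Rpl14 (ENSMUSG00000025794), a large subunit protein, had 111, 107 and 96.7 CPM in the 3 sham vehicle mice, against 137, 135 and 188 CPM in MI mice 1 to 3. Its groups did not overlap, and MI mouse 3 was the highest. The means were 105 ± 7.45 and 153 ± 30.3 CPM (SD, n = 3 in both). On the log2 scale the fold change was 0.54 ± 0.16 (SE), with an edgeR adjusted p = 0.247. Rps9 (ENSMUSG00000006333), a small subunit protein that helps keep decoding accurate, had 235, 233 and 207 CPM in sham vehicle and 276, 323 and 367 CPM in MI mice. Here too every MI mouse lay above every sham vehicle mouse, and the log2 fold change was 0.51 ± 0.16 (SE, edgeR adjusted p = 0.247). Rps26 (ENSMUSG00000025362), which lies where mRNA leaves the small subunit, had 76.8, 72.3 and 60.1 CPM in sham vehicle and 80.8, 99.8 and 128 CPM in MI mice. MI mouse 1 was just above the highest sham vehicle mouse, and the log2 fold change was 0.56 ± 0.18 (SE, edgeR adjusted p = 0.247). These 3 had the smallest p among members that were higher.

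The P-stalk and the most counted members showed smaller differences. Rplp0, the base of the stalk that recruits elongation factors, had 565, 516 and 487 CPM in sham vehicle and 547, 524 and 619 CPM in MI mice, so the groups overlapped (log2 fold change 0.10 ± 0.16, SE). Rplp1, a stalk protein, had 246, 339 and 298 CPM in sham vehicle and 264, 304 and 417 CPM in MI mice. Its range in MI mice was likewise wide, and only MI mouse 3 lay above the sham vehicle mice. Rplp2, its partner on the stalk, had 156, 158 and 142 CPM in sham vehicle and 166, 186 and 199 CPM in MI mice, without overlap (log2 fold change 0.27 ± 0.16, SE, edgeR adjusted p = 0.513). Rpsa, a small subunit protein also known as a laminin receptor, had 457, 497 and 457 CPM in sham vehicle and 451, 422 and 574 CPM in MI mice. The large subunit gene Rpl4 had 359, 324 and 364 against 355, 378 and 459 CPM, and the small subunit gene Rps3a1 had 290, 276 and 273 against 302, 289 and 397 CPM. In Rpsa, Rpl4 and Rps3a1 MI mouse 3 was the highest of the 6 mice, and MI mice 1 and 2 lay near or within the sham vehicle range.

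Only 4 members had a log2 fold change below 0, where 50.9% of all tested genes did. Rps2, the member with the most counts and part of the entry of the mRNA channel, had 665, 695 and 517 CPM in sham vehicle and 536, 535 and 500 CPM in MI mice. Sham vehicle mouse 3 lay among the MI mice, and the log2 fold change was -0.27 ± 0.17 (SE, edgeR adjusted p = 0.537). Rpl3l had -0.15 ± 0.24, and Rpl36al, a near copy of Rpl36a, and the small subunit gene Rps21 had -0.03 each. Rpl36al was 51.2, 50.9 and 49.8 CPM in sham vehicle and 54.8, 35.9 and 58.1 CPM in MI mice, and Rps21 was 73.9, 86.3 and 77.0 against 60.1, 44.9 and 128 CPM. In both genes the 2nd library of MI mouse 2 was the lowest and that of MI mouse 3 the highest of the 6. The 1st library of MI mouse 2 was not low, with 84.7 CPM of Rpl36al and 137 CPM of Rps21. That of MI mouse 3 had 59.5 and 137 CPM.

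Counted over the list, 0 of 82 members passed the threshold (edgeR, adjusted p under 0.05), which 0.0736% of the 9505 tested genes did. With DESeq2 and with limma it was also 0. At an unadjusted p under 0.05 there were 26 members with edgeR (12.0% of all genes), with 19 by DESeq2 (7.29%) and 11 by limma (9.44%). All 26 were higher in MI, as were 6.19% of all genes at that p, and 0 were lower, as were 5.8% of all genes. The median log2 fold change was 0.30 against -0.0075 over all genes, with 78 members above 0 where 49.1% of all genes were. It was 0.30 in the 50 large and 0.29 in the 32 small subunit members. Without overlap, 21 members were higher in all MI mice, against 7.49% of all genes, and 0 were lower, against 6.9%. They included Rpl14, Rps9 and Rps26.

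The median and the count at an unadjusted p depended on MI mouse 3 and on which library of MI mouse 2 was used. Without MI mouse 3 the median was 0.09, with 61 of 82 members above 0 (49.0% of all genes) and 21 below (51.0%). At an unadjusted p under 0.05 there were then 4 (6.69% of all genes), and 0 passed (0.0102%). With the 1st libraries in place of the 2nd the median was 0.49, with 80 members above 0 (50.5% of all genes) and 2 below (49.5%). At an unadjusted p under 0.05 there were 58 (14.8% of all genes), and 0 passed (0.124%). With the 1st library of MI mouse 2 and without MI mouse 3 it was 0.43. Then 82 members were above 0 (48.9% of all genes) and 0 below (51.1%), 42 had an unadjusted p under 0.05 (12.8%) and 0 passed (0.0506%).

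**Figure D3:**
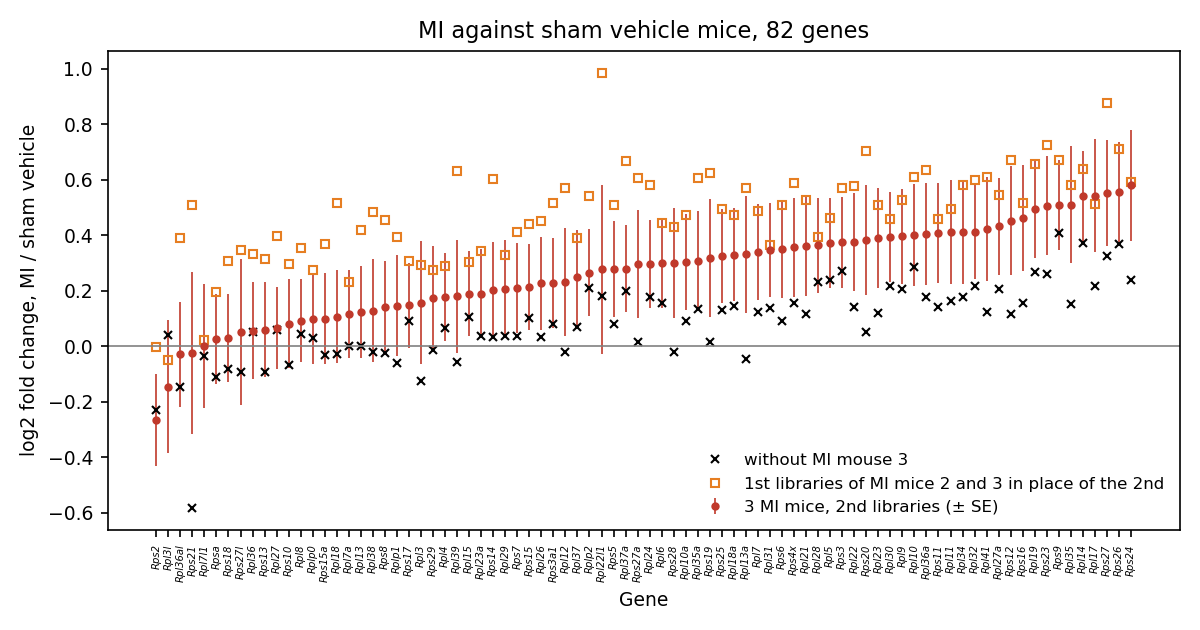
Log2 fold change of MI against sham vehicle mice (vertical axis) for each of 82 ribosomal protein genes (horizontal axis, in order of the value), with red points and bars for the estimate ± SE from 3 MI mice, black crosses without MI mouse 3 and open orange squares with the 1st libraries of MI mice 2 and 3. The red points have a median of 0.30, the crosses of 0.09 and the squares of 0.49.

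Between NECA-treated MI and MI mice the sign was opposite, and the MI mice with their high MI mouse 3 entered both comparisons. Rpl30 (ENSMUSG00000058600), a large subunit protein, had 153, 154 and 214 CPM in MI mice 1 to 3 and 127, 118, 111 and 111 CPM in NECA-treated mice 1 to 4. All NECA-treated mice lay below all MI mice, and against the 125 to 135 CPM of sham vehicle mice, NECA-treated mouse 1 lay within and the others below. The log2 fold change was -0.57 ± 0.15 (SE, edgeR adjusted p = 0.793). Rpl35 (ENSMUSG00000062997), near the exit of the nascent chain, had 121, 140 and 243 CPM in MI and 112, 110, 92.4 and 122 CPM in NECA-treated mice. NECA-treated mouse 4 overlapped MI mouse 1, and the log2 fold change was -0.62 ± 0.20 (SE, edgeR adjusted p = 0.793). Rpl36a (ENSMUSG00000079435) had 64.6, 68.4 and 101 CPM in MI and 53.8, 62.3, 48.8 and 51.4 CPM in NECA-treated mice, without overlap. Its log2 fold change was -0.52 ± 0.17 (SE, edgeR adjusted p = 0.793).

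Of the P-stalk genes, Rplp0 and Rplp1 had NECA-treated levels near those of sham vehicle mice. Rplp0 was 567, 572, 535 and 496 CPM and Rplp1 303, 356, 296 and 323 CPM in NECA-treated mice 1 to 4. Rplp2 was 181, 183, 159 and 142 CPM and Rpsa 419, 435, 417 and 424 CPM. For Rplp2, NECA-treated mice 1 and 2 lay above the sham vehicle mice (156, 158 and 142 CPM). They lay within the 166 to 199 CPM of MI mice. For Rpsa the NECA-treated mice spread over a narrow range that lay below the sham vehicle mice and overlapped MI mouse 2. The 3 members higher in NECA-treated than in MI mice were Rps2, Rps21 and Rpl8. Rps2 had 574, 564, 572 and 611 CPM in NECA-treated mice, above all MI mice (log2 fold change 0.15 ± 0.15, SE, edgeR adjusted p = 0.904). Rps21 had 74.6, 93.0, 82.8 and 71.2 CPM, between MI mouse 1 and MI mouse 3. Rpl8, a large subunit protein near the peptidyl transferase centre, had 268, 281, 273 and 290 CPM, within the 266 to 297 CPM of MI mice.

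Over the list, 0 of 82 members passed in this comparison with edgeR, DESeq2 or limma, and 0.0% of all genes did with edgeR. At an unadjusted p under 0.05 there were 19 members with edgeR (6.07% of all genes), 19 lower (3.07%) and 0 higher (3.0%), and 14 members had such a p by DESeq2 (2.8% of all genes) and 8 by limma (5.43%). The median log2 fold change was -0.24 against -0.01 over all genes, with 79 members below 0 (51.5% of all genes) and 3 above (48.5%). It was -0.25 in the 50 large subunit members, 15 of them at that p, and -0.24 in the 32 small subunit members, 4 of them at that p, a difference that was not tested. Without overlap, 13 members were lower (3.68% of all genes) and 1, Rps2, was higher (3.8%). Without MI mouse 3 the median was -0.06, with 59 members below 0 (50.1% of all genes) and 23 above (49.9%), and 2 had an unadjusted p under 0.05 (3.73%). With the 1st libraries it was -0.45, with 82 members below 0 (52.0% of all genes) and 58 at that p (11.0%), and 0 passed (0.0103%).

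Between NECA-treated MI and sham vehicle mice, ribosomal protein genes had a median log2 fold change of 0.03, with 47 members above 0 (47.9% of all genes) and 35 below (52.1%), beside -0.01 over all genes. No member passed with edgeR, DESeq2 or limma, where 0.0105% of all genes did with edgeR. At an unadjusted p under 0.05 there were 0 members with edgeR and DESeq2 and 1 with limma. Of all genes, 6.03% had such a p with edgeR (3.07% higher and 2.96% lower), 2.98% with DESeq2 and 4.91% with limma. Rps9 had 312, 273, 255 and 258 CPM in NECA-treated mice, all above the 207 to 235 CPM of sham vehicle mice (log2 fold change 0.29 ± 0.15, SE, edgeR adjusted p = 0.839). Rps23, a small subunit protein of the decoding centre, had 150, 173, 155 and 146 CPM against 128, 119 and 141 CPM, also without overlap (0.27 ± 0.17, SE). Rpl14 had 127, 120, 132 and 119 CPM, above its sham vehicle values (0.24 ± 0.15, SE). In Rps9 and Rpl14 NECA-treated mice lay above sham vehicle mice by less on average than MI mice did. For Rps9, NECA-treated mouse 1 still lay above MI mouse 1 (276 CPM). Rps23 had 162, 148 and 245 CPM in MI mice 1 to 3. Only MI mouse 3 thus lay above the NECA-treated mice in Rps23. On the lower side, Rps13 had 106, 119, 116 and 111 CPM against 154, 137 and 107 CPM, with sham vehicle mouse 3 among the NECA-treated mice (-0.23 ± 0.16, SE). Rpl36al had 47.3, 44.1, 43.6 and 38.6 CPM, all below the sham vehicle mice (-0.22 ± 0.18, SE), and Rpl22l1 had 12.8, 11.0, 12.2 and 10.9 CPM against 17.7, 14.0 and 13.9 CPM (-0.36 ± 0.30, SE). Without overlap, 6 members were higher (4.36% of all genes) and 3 lower (4.04%), shares near those of all genes.

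The repeated libraries gave different answers in the 2 mice. In MI mouse 2 all 82 members were higher in the 1st library than in the 2nd, with a median log2 difference of 0.58 and quartiles of 0.46 and 0.72. Rpl22l1 had the largest difference (1.82), with 40.5 CPM in the 1st library against 11.2 CPM. Rpl28, chosen after its values were seen, had the smallest (0.11). Over all tested genes the median difference of this mouse was 0.03 and 51.6% were higher. In MI mouse 3 the members were evenly divided, with 39 higher and 43 lower in the 1st library and a median difference of -0.0094. The extremes were Rpl39 (0.40) and Rpl35 (-0.39). Rps9 was 445 and 323 CPM in the pair from MI mouse 2, against 364 and 367 CPM in those of MI mouse 3. Rpl14 was 201 and 135 CPM in MI mouse 2 and 155 and 188 CPM in MI mouse 3. For both genes the 1st library of MI mouse 2 was the highest of all 12.

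In the test of 1st against 2nd libraries with the mouse as a block, 84 members were tested and 0 passed, against 0.17% of 14710 genes (edgeR, adjusted p under 0.05). DESeq2 gave 0 as well. At an unadjusted p under 0.05 there were 6 members with edgeR (3.03% of all genes) and 1 with DESeq2 (0.53%). The median log2 fold change was 0.32 beside 0.05 over all genes, and 83 members were above 0 where 55.1% of all genes were. This fit has 1 residual degree of freedom. Rpl22l1 had 1.02 ± 0.37 and Rps21 0.82 ± 0.31 (SE, edgeR adjusted p = 0.999787 for each). The 1st libraries differed from the 2nd in depth and in the gene rows they hold, and the part of either in the values of MI mouse 2 was not tested.

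**Figure D4:**
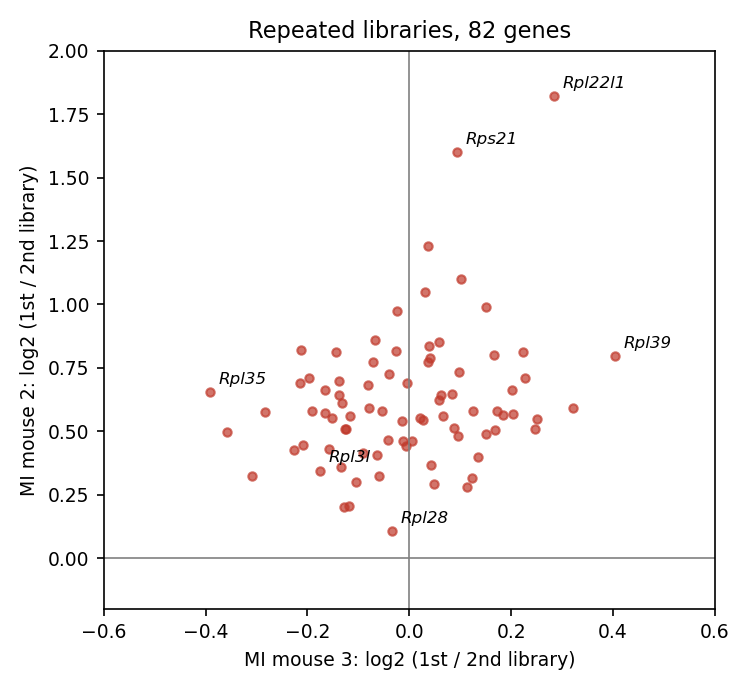
Log2 difference of the 1st from the 2nd library for 82 ribosomal protein genes, in MI mouse 3 (horizontal axis) and MI mouse 2 (vertical axis), 1 point per gene. All points lie above 0 for MI mouse 2 (median 0.58), while those for MI mouse 3 spread to both sides of 0 (median -0.0094).

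The muscle paralogue Rpl3l differed from the other members in which mice it was low. Rpl3l (ENSMUSG00000002500) had 208, 200 and 96.7 CPM in the sham vehicle mice in order, 170 CPM in MI mouse 1, and 222 and 175 CPM in the libraries of MI mouse 2. In those of MI mouse 3 it had 99.4 and 112 CPM, and NECA-treated mice had 160, 143, 136 and 158 CPM. It was low in sham vehicle mouse 3 and MI mouse 3, and in both libraries of the latter. Rpl3 (ENSMUSG00000060036), its form in all cells, had 137, 161 and 246 CPM in sham vehicle mice, 167 CPM in MI mouse 1, and 205 and 168 CPM in the libraries of MI mouse 2. It was high where Rpl3l was low, at 301 and 278 CPM in MI mouse 3, and had 196, 180, 189 and 157 CPM in NECA-treated mice. Per transcript length, on the TPM scale, Rpl3l had 134, 135 and 83.4 TPM and Rpl3 92.1, 108 and 211 TPM in sham vehicle mice 1 to 3. This scale divides 3′ reads by length, so no order of the 2 genes is read from it.

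As a share of the counts of both genes, a measure that compares libraries and not the levels of these genes, Rpl3l took 60.3%, 55.4% and 28.2% in sham vehicle mice. It took 50.4% in MI mouse 1, 52.1% and 51.0% in the pair from MI mouse 2, and 24.8% and 28.8% in those of MI mouse 3. NECA-treated mice had 45.0%, 44.3%, 41.8% and 50.2%. The 95% Wilson intervals of sham vehicle mouse 3 (24.3% to 32.4%) and of the 2nd library of MI mouse 3 (24.6% to 33.3%) did not reach those of the other 8 libraries of like depth. The means were 47.9% ± 17.3 in sham vehicle (SD, n = 3), 43.4% ± 12.7 in MI (SD, n = 3) and 45.3% ± 3.50 in NECA-treated mice (SD, n = 4). No difference between groups was larger than the spread of mice. A two-sided exact permutation test gave p = 0.6 for MI against sham vehicle, p = 0.857 for NECA-treated against MI and p = 0.857 for NECA-treated against sham vehicle. With 3 against 3 mice it cannot go below 0.1. The same mice were the ones with high Nppa, the atrial and stretch peptide, at 4008 CPM in sham vehicle mouse 3 and 3831 CPM in MI mouse 3 (2nd library), against 65.0 to 290 in the other 8 libraries of like depth. Of the other atrial markers, Myl4, Myl7 and Sln were at 0 in MI mouse 3 (2nd library), but at 1346, 785 and 285 CPM in sham vehicle mouse 3. The part of either in the Rpl3l share was not tested.

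**Figure D5:**
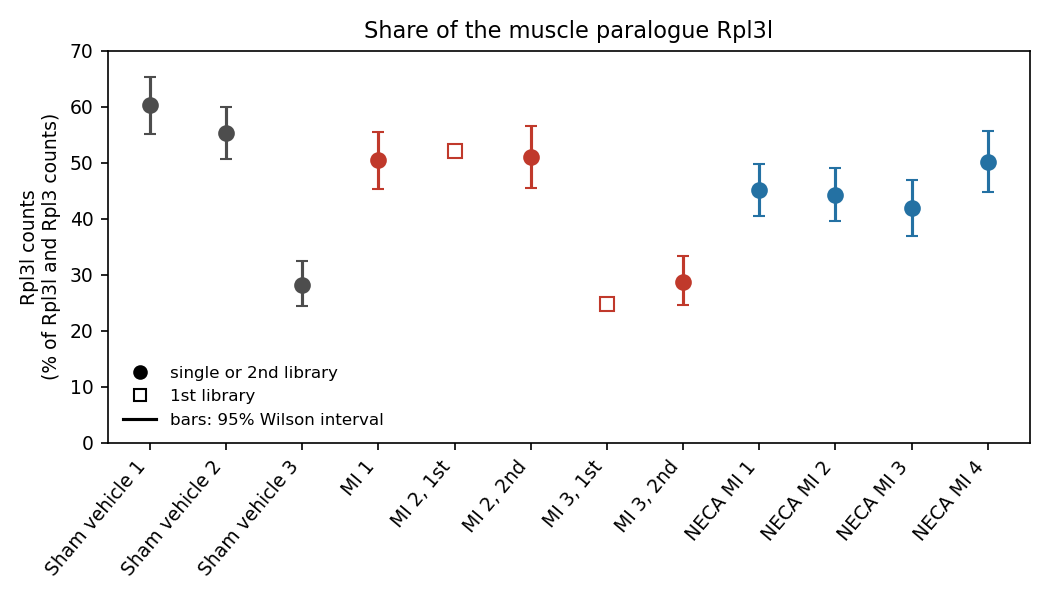
Rpl3l counts as a percent of Rpl3l and Rpl3 counts (vertical axis) in 12 libraries, with filled points for single or 2nd libraries, open squares for 1st libraries and bars for 95% Wilson intervals. Sham vehicle mouse 3 (28.2%) and both libraries of MI mouse 3 (24.8% and 28.8%) lie below all others, which range from 41.8% to 60.3%.

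The other paralogue pairs are given as values, since the exact permutation test cannot go below p = 0.1 with 3 against 3 and p = 0.0571 with 3 against 4 mice. Rpl22l1, a rarely counted relative of Rpl22, took 15.1% ± 1.70 of the counts of that pair in sham vehicle (SD, n = 3) and 12.4% ± 1.29 in NECA-treated mice (SD, n = 4), the smallest p of 12 such tests (exact permutation p = 0.114, Benjamini-Hochberg adjusted p = 0.6). It took 18.7%, 11.0% and 12.6% in MI mice 1 to 3, and 20.1% in the 1st library of MI mouse 2. Rps27l, a relative of Rps27 that p53 induces, took 24.1% ± 5.19 in sham vehicle (SD, n = 3), 18.5% ± 4.25 in MI (SD, n = 3) and 20.6% ± 4.93 in NECA-treated mice (SD, n = 4). Rpl36al took 46.4% ± 0.809, 38.9% ± 6.10 and 44.6% ± 2.85 of the counts shared with Rpl36a in the same order and numbers of mice. Its low values were 34.4% and 36.5% in the 2nd libraries of MI mice 2 and 3. In their 1st libraries the Rpl36al share was 45.6% and 36.1%, so it was low in both libraries only for MI mouse 3. Rpl7l1, the relative of Rpl7 with a part in ribosome assembly, had 29.5, 35.3 and 39.6 CPM in sham vehicle, 35.0, 33.6 and 37.1 CPM in MI, and 36.1, 30.7, 22.7 and 33.6 CPM in NECA-treated mice. Rpl7 itself had 241, 265 and 262 CPM in sham vehicle, 296, 264 and 420 CPM in MI, and 277, 270, 258 and 252 CPM in NECA-treated mice. MI mouse 3 was high in Rpl7 and within the range of the others in Rpl7l1. Of the testis relatives, Rpl10l had no count in any library and Rpl39l a single count in the 10 libraries of like depth. Rpl10, Rpl39 and Rps4x had 304, 91.4 and 376 CPM in MI mouse 3 (2nd library), each the highest of the 10, against sham vehicle ranges of 156 to 240, 54.2 to 73.3 and 197 to 249 CPM.

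Per transcript length, and chosen after their values were seen, the members with the highest levels over the 10 libraries were Rps29 (mean 1023 TPM), Rplp1 (944 TPM), Rps24 (770 TPM), Rps15 (711 TPM) and Rpl13a (708 TPM). Reads of a 3′ method do not grow with transcript length, so dividing by length lifts these short transcripts. On the CPM scale the mean of members ran from 14.7 (Rpl22l1) to 577 (Rps2), with a median of 169.

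Other mRNAs of the translation machinery were followed in the same libraries. Fau, which encodes a small subunit protein under another name, had a log2 fold change of 0.39 ± 0.21 between MI and sham vehicle mice (SE, edgeR adjusted p = 0.460), and Rack1, a scaffold protein of the small subunit, had 0.15 ± 0.16 (SE, edgeR adjusted p = 0.730). Of 27 mRNAs with a TOP tract outside the rule, 19 were above 0 (49.1% of all genes) and 8 below (50.9%) in MI against sham vehicle mice (median 0.12). At an unadjusted p under 0.05 there was 1 (12.0% of all genes), and 0 passed with edgeR, DESeq2 or limma. Nap1l1, a histone chaperone, had 0.61 ± 0.21 and Eef1b2, an elongation factor subunit, 0.32 ± 0.16 (SE). The median ratio of the 27 genes was 0.21 in MI mouse 3 (2nd library), and 0.46 and 0.08 in the libraries of MI mouse 2, so the libraries that were high in ribosomal proteins were high here too, by less.

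Factors that build ribosomes had a median near 0. Of 30 biogenesis genes 28 were tested in MI against sham vehicle mice, with 15 above and 13 below 0 and a median of 0.02, and 1 had an unadjusted p under 0.05. That was Rrp12 (-0.98 ± 0.37, SE), a factor of ribosomal subunit export. Over all genes in this comparison, 49.1% were above 0, 50.9% below, and 12.0% had such a p. Nucleolin (Ncl) had 0.27 ± 0.15 (SE). Of 10 tested genes of RNA polymerase I and Myc, 5 were above and 5 below 0, and the polymerase subunit genes Polr1d and Polr1e had 0.59 ± 0.21 and 0.65 ± 0.27 (SE). Of 22 genes of mTORC1, S6 kinases and TOP mRNA regulators, 7 were above and 15 below 0 with a median of -0.15, and Rps6ka2, a kinase of the RSK family, had -0.92 ± 0.21 (SE, edgeR adjusted p = 0.121). In none of these lists did a gene pass in any comparison with edgeR or DESeq2, nor with limma where it was run.

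Of 9 host genes of small nucleolar RNAs, which also carry TOP tracts, 4 had counts enough for the test in the comparisons of groups. Their median log2 ratio to the sham vehicle mean was -0.06 in MI mouse 1. It was 0.97 and 0.82 in the 1st and 2nd library of MI mouse 2, and 0.97 and 0.84 in those of MI mouse 3. Sham vehicle mice had -0.25 to 0.16 and NECA-treated mice -0.21 to 0.11. Gas5 had the smallest p, with log2 ratios to the sham vehicle mean of 0.79 in MI mouse 1, 0.96 and 0.77 in the pair from MI mouse 2, and 1.29 and 1.55 in those of MI mouse 3. The sham vehicle mice had -0.34, -0.02 and 0.37, and NECA-treated mice 0.16, 0.17, -0.11 and 0.12. Gas5 was thus above the sham vehicle range in all MI mice and in both libraries of MI mouse 2. Its log2 fold change was 1.03 ± 0.23 in MI against sham vehicle (SE, edgeR adjusted p = 0.116) and -0.99 ± 0.21 between NECA-treated and MI mice (SE, edgeR adjusted p = 0.793), and neither passed.

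Ribosomal proteins of mitochondria, which are encoded in the nucleus, were mostly below 0. All 78 measured genes were tested. In MI against sham vehicle mice 21 were above 0 (49.1% of all genes) and 57 below (50.9%). The median was -0.18, with 18 at an unadjusted p under 0.05 (12.0% of all genes). In NECA-treated against sham vehicle mice 10 were above 0 (47.9% of all genes) and 68 below (52.1%). The median there was -0.26, and 17 were at that p (6.03% of all genes). None passed with edgeR, DESeq2 or limma. Mrpl37 had -0.70 ± 0.22 and Mrpl19 -0.89 ± 0.29 in MI against sham vehicle mice (SE, edgeR adjusted p = 0.247 for each). Among the 10 libraries of like depth, most cytosolic members were highest in MI mouse 3. In that mouse the median ratio of the 78 genes was -0.30 in the 1st and -0.31 in the 2nd library. In the 1st library of MI mouse 2 it was 0.45 and in the 2nd -0.08, so in that mouse both kinds of ribosomal protein were higher in the 1st library. The sham vehicle mice had 0.16, 0.07 and -0.22, and NECA-treated mice -0.20 to -0.27.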

How the data were processed

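Myocardial tissue of 10 mice gave 12 libraries of 3′ RNA sequencing, made with a modified CEL-Seq2 method, amplified without sample pooling, per the labels' protocols. Reads were processed with STAR, RSEM and FastQC 0.11.9 on build GRCm39, per the submitters' processing notes. Which annotation release was used, and whether counting used molecular identifiers or strand, is not given in the sources used here. Expected counts per gene, as whole numbers, and log2(TPM + 1) values were deposited by the authors. Of 57054 rows, 306 had values only in the 1st libraries and 101 lacked them only there. The other 56647 were used, and 52029 of them matched a GENCODE M21 symbol by gene identifier. GENCODE M21 belongs to another build, so no coordinates were taken from it. Columns left out of the tables numbered 0.

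The test was that of edgeR 4.0.16 (R 4.3.3), with filterByExpr, TMM scaling and robust quasi-likelihood in 1 fit of the 3 groups, two-sided, with a Benjamini-Hochberg adjusted p under 0.05 over all 9505 genes as the threshold. One library per mouse entered, the 2nd of MI mice 2 and 3, since their 1st libraries differed in depth and gene rows. Library depths are given in the report, and at the smallest of these depths 3 counts, which a count of 0 allows, were 3.13 CPM. Log2 ratios to the sham vehicle mean used a prior count of 2. Alternatives were DESeq2 1.42.0, limma 3.58.1 on the log2(TPM + 1) values, other scalings, no count filter, summed or 1st libraries, a fit of the groups compared alone, a block by replicate number and leaving out each mouse. A fit with the 1st libraries and without MI mouse 3 was added after seeing the data. The scripts were tested on simulated data.

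The members, the gene lists and the tests were chosen with earlier results of these data known. Named members are the 6 with the most counts, the 3 of smallest p in each direction of each comparison, the P-stalk genes with Rpsa, and paralogue pairs, and from each other list at most 2 genes of smallest p. Any other is marked as picked after seeing its values. Mice are separate animals per the labels. A gene of 1 of the other lists is not reported here.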

Additional observations from a re-analysis of the deposited data

How the results depend on the processing

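No ribosomal protein gene passed the threshold in any of the 21 alternatives of the 3 comparisons, and the smallest adjusted p of any member under any setting was 0.0860 for MI against sham vehicle, 0.0895 for NECA-treated MI against MI and 0.424 between NECA-treated MI and sham vehicle mice (edgeR, DESeq2 or limma). The median log2 fold change of members kept its sign under each of them. Depth limits single members, since Rpl22l1 had 10 to 25 counts in a library of like depth. The cause of the changes below was not tested.

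The replicate numbers in the labels did not pair the mice. Deviations of same-numbered libraries from their group means correlated at -0.23 to 0.19, 7 of 9 pairs lay at or under 0.1, and 1 of 9 libraries correlated best with its own number. With the replicate number as a block, 8, 0 and 4 genes passed in the 3 comparisons in the order above, with 7, 0 and 1 without the block, and the median of members was 0.28, -0.23 and 0.04. Rpl8 then had -0.0090 in NECA-treated against MI mice.

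For MI against sham vehicle mice, 7 genes of all passed. With the libraries summed per mouse 15 passed and the median of members was 0.49, and with the 1st libraries 12 passed, also with a median of 0.49. Without the count filter 191 genes passed, with limma 0 and with only the 2 groups in the fit 0. Leaving out each mouse gave 0 to 50 genes, namely 4, 0 and 50 without sham vehicle mice 1 to 3, 1 without MI mouse 3, and 2, 2, 3 and 2 without NECA-treated mice 1 to 4. The median of members ran from 0.091 without MI mouse 3 to 0.37.

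For NECA-treated against MI mice 0 genes passed, with 577 at an unadjusted p under 0.05, 1 with summed libraries (median of members -0.45) and 1 with the 1st libraries (median -0.45). Without the count filter 8 passed. Leaving out each mouse gave 0 to 2 genes, with 2 without MI mouse 1, and medians from -0.34 to -0.059, the last without MI mouse 3.

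For NECA-treated against sham vehicle mice 1 gene passed. It was 0 with summed and 0 with the 1st libraries, 4 by library totals, 43 without the filter, 6 with DESeq2, 0 with limma, 7 with only the 2 groups and 2 with the 1st library and without MI mouse 3. Leaving out each mouse gave 0 to 7 genes, with 0 without sham vehicle mouse 2 or NECA-treated mice 2, 3 or 4, 5 without sham vehicle mouse 3 and 7 without MI mouse 3. For 1st against 2nd libraries 25 genes passed with edgeR and 6 with DESeq2.

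Of the members named for their p, the following changed sign, none of which passed in any fit. In MI against sham vehicle mice, Rps2 had 0.070 with the 1st library and without MI mouse 3. Rpl3l had 0.021 with limma, 0.22 with the 1st library and without MI mouse 3, and -0.43 to 0.039 when each mouse was left out. Rpl36al had 0.38 with summed libraries, 0.39 with 1st libraries, 0.061 by library totals, 0.49 with the 1st library and without MI mouse 3, and -0.15 to 0.15 when each mouse was left out. In NECA-treated against MI mice, with summed libraries, 1st libraries, and the 1st library without MI mouse 3, Rps2 had -0.10, -0.11 and -0.19, Rps21 had -0.47, -0.49 and -0.34, and Rpl8 had -0.24, -0.25 and -0.26. By library totals Rps21 had -0.0088 and Rpl8 -0.018. Leaving out each mouse gave -0.22 to 0.61 for Rps21 and -0.019 to 0.062 for Rpl8.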

Other observations

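Of the 4 ribosomal protein symbols that were not tested, 2 had counts in every library. Rps27rt, a retrogene of Rps27, had 59 counts over the 10 libraries of like depth and 573 over the 1st libraries, with 1.60 to 14.3 CPM. Rps19bp1 had 63 and 421 counts, with 2.61 to 11.0 CPM. Rpl39l had 1 and 4 counts.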
